A study of Mus musculus with 6 samples.

Results

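Trpm2, Trpm3, Trpm4, Trpm5 and Trpm7 encode cation channels of the melastatin branch of the transient receptor potential (TRP) family. These are 5 of the 20659 genes that the array's probes name through RefSeq, and they are read by 7 of its 39429 probes. Trpm3 had 3 probes and each of the other genes had 1. The genes were listed with their levels and their changes in these arrays already known, so the values of the comparison are given for them as a description. No single p-value is printed for any of the 5, and their intervals and counts at a threshold are description only.

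The cells were MIN6B1, a clone of the mouse insulinoma line MIN6. The line still secretes insulin in response to glucose and stands in for beta cells, although it is a tumour line. The first group of 3 samples was transfected with siGFP, a small interfering RNA (siRNA) against green fluorescent protein that acts as the control. The second group of 3 received circHIPK3 siRNA, directed at circHIPK3, a circular transcript of Hipk3. Both groups grew in DMEM Glutamax with fetal calf serum, penicillin, streptomycin and β-mercaptoethanol, and both were exposed to the RNAiMax reagent for 48 h. One Agilent array was used per sample, with a single dye. Nothing in the labels says that the replicates came from separate cultures, so standard errors and p-values measure the spread between these samples only, which may be technical.

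TRPM channels let cations through the plasma membrane in response to signals inside the cell, heat or small ligands. TRPM4 and TRPM5 open when intracellular calcium rises and carry monovalent cations, which depolarises the membrane. TRPM2 is a calcium-permeable channel opened by ADP-ribose, TRPM3 responds to pregnenolone sulfate and to heat, and TRPM7 is a magnesium- and calcium-permeable channel fused to a protein kinase. In beta cells, such inward currents add to the depolarisation that follows closure of the ATP-sensitive potassium channels and so favour insulin release.

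The 75th percentile of the signal lay between 2939 and 3669 units on the 6 arrays. Spots well above background made up 77.7%, 79.8% and 78.6% on the siGFP arrays. On the circHIPK3 siRNA arrays they made up 80.7%, 83.5% and 82.5%, so the groups did not overlap. The part of this difference in the values of dim probes was not tested. The first scan held 4 arrays, those of siGFP and that of circHIPK3 siRNA replicate 1, and the second held replicates 2 and 3 of circHIPK3 siRNA and no control. All 12 beta cell markers listed, such as Ins1, Ins2, Pdx1 and Mafa, were well above background on every array. Of 7 markers of tuft and taste receptor cells, which also use TRPM5, 6 to 7 were well above background per array. The brighter Hipk3 probe differed by -0.17 ± 0.14 (SE, limma adjusted p = 0.50) and the second by -0.31 ± 0.12 (SE). The files do not place either probe relative to the circularised exon, so they check neither the silencing nor the labels.

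Signals are given on the log2 scale relative to the array's own 75th percentile. Probes entered the fit if at least 1 group had them well above background on each of its 3 arrays. That held for 4 of the 7 probes, 1 each for Trpm3, Trpm4, Trpm5 and Trpm7. Changes are circHIPK3 siRNA minus siGFP. Each has a standard error (SE) and, where given, a 95% interval from a limma fit over 25776 genes and unnamed transcripts. Signals of different probes depend on the probe as well as on the RNA and were not compared with each other.

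Trpm5 encodes the calcium-activated monovalent cation channel best known from the transduction of sweet, bitter and umami taste, and it is also expressed in islets. Its probe had processed signals of 6312, 9276 and 8136 units on the siGFP arrays. On the circHIPK3 siRNA arrays the signals were 5720, 6322 and 4755 units. Before scaling, siGFP replicate 1 therefore lay just below circHIPK3 siRNA replicate 2. Relative to the 75th percentile, the log2 values were 1.10, 1.34 and 1.27 for siGFP and 0.67, 0.79 and 0.47 for circHIPK3 siRNA. All 3 circHIPK3 siRNA arrays were then below all 3 siGFP arrays, with a gap of 0.32 between the nearest arrays of the groups.

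The group means of Trpm5 were 1.24 ± 0.12 (SD, n = 3) and 0.64 ± 0.16 (SD, n = 3). The change was -0.59 ± 0.12 (SE), a 1.51-fold lower signal with a 95% interval of -0.87 to -0.31 on the log2 scale. Among all genes, 449 had a lower change, which is 1.74%. When genes were divided by mean signal into 4 classes of 6444, the brightest class, to which Trpm5 belongs, had a median change of -0.0097. The median over all genes was 0.08. Within its own scan, circHIPK3 siRNA replicate 1 differed from the controls by -0.56 ± 0.15 (SE), where the lone array is assumed to vary like the others. The summed level of the 12 beta cell markers, each as a multiple of the 75th percentile, was 472 to 518 on the siGFP arrays and 445 to 509 on the circHIPK3 siRNA arrays. None of the 12 passed the limma test, and 2 were lower and 1 higher at an unadjusted p under 0.05 (6.51% and 14.6% of all genes). The groups did not overlap for 3 with circHIPK3 siRNA lower and for 1 with it higher, against 9.38% and 16.6% of all genes. Lower were the glucose transporter gene Slc2a2 (-1.14 ± 0.22, SE), the zinc transporter gene Slc30a8 (-0.33 ± 0.10, SE) and Ins1 (-0.12 ± 0.09, SE). Higher was the prohormone convertase gene Pcsk1 (0.39 ± 0.14, SE). The summed level of the tuft and taste cell markers was 0.94 to 1.26 and 1.13 to 1.22. That of the 5 alpha cell markers was 36.6 to 59.4 and 27.0 to 44.2. For the beta, tuft and alpha lists the summed levels of the groups overlapped. The 3 measured alpha markers lay below 0, among them Gcg (-0.59 ± 0.30, SE), and none passed the limma test. For markers of pancreatic polypeptide and epsilon cells the sums were 0.44 to 0.53 and 0.55 to 0.64, without overlap, and all 3 measured genes lay above 0. So did 3 of 3 measured leukocyte, 2 of 2 endothelial, 4 of 5 acinar, 3 of 4 fibroblast or stellate, 2 of 3 ductal and 1 of 2 delta cell markers. For these lists the sums of the groups overlapped. Over all genes, the 2 dimmest of the 4 signal classes had medians of 0.28 and 0.15, and the part of probe brightness was not tested. Among the 6 measured tuft and taste markers the groups did not overlap for 1, with circHIPK3 siRNA higher, against 16.6% of all genes. It was Gnat3 (0.83 ± 0.29, SE), which is dim, with a siGFP mean of -5.75. The part of these marker levels in the lower Trpm5 signal was not tested. In samples of whole cultures, fewer cells that express a gene and less RNA per cell cannot be told apart.

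Trpm4 encodes the closest relative of TRPM5, also gated by calcium and permeable to sodium and potassium. The signals were 313, 305 and 332 units for siGFP and 396, 284 and 306 for circHIPK3 siRNA. The log2 values were -3.23, -3.59 and -3.35 for siGFP, and -3.18, -3.69 and -3.48 for circHIPK3 siRNA. The circHIPK3 siRNA arrays held both the highest and the lowest value, so that the siGFP range lay inside theirs. The change was -0.06 ± 0.16 (SE), with a 95% interval of -0.43 to 0.31. The sign depended on the array: with the first scan alone it was 0.21 ± 0.18 (SE), and leaving out siGFP replicate 1 or circHIPK3 siRNA replicate 2 gave 0.02 and 0.06.

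Trpm2 encodes the channel that ADP-ribose opens through a domain related to the NUDT9 hydrolase. Its probe read 31.9, 16.5 and 25.3 units on the siGFP arrays and 24.2, 38.3 and 34.2 on the circHIPK3 siRNA arrays. It was well above background on siGFP replicate 1 and on circHIPK3 siRNA replicates 2 and 3. The other 3 arrays gave no such reading, and the probe did not enter the fit. The log2 means were -7.13 ± 0.64 (SD, n = 3) and -6.81 ± 0.35 (SD, n = 3), with overlapping groups. At this signal a change in Trpm2 could not be measured.

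Trpm7 encodes the channel-kinase that is found in most cell types and takes part in magnesium balance. The signals were 8169, 11695 and 9277 units for siGFP and 10485, 11124 and 9501 for circHIPK3 siRNA. The log2 values were 1.47, 1.67 and 1.45 against 1.55, 1.60 and 1.47, so that all 3 circHIPK3 siRNA arrays lay within the siGFP range. The change was 0.0063 ± 0.10 (SE), with a 95% interval of -0.24 to 0.25, and it became -0.10 when arrays were scaled to their median, a scaling that shifted the median of all genes from 0.08 to -0.02. Of all genes, 2.32% had a change closer to 0.

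**Figure D1:**
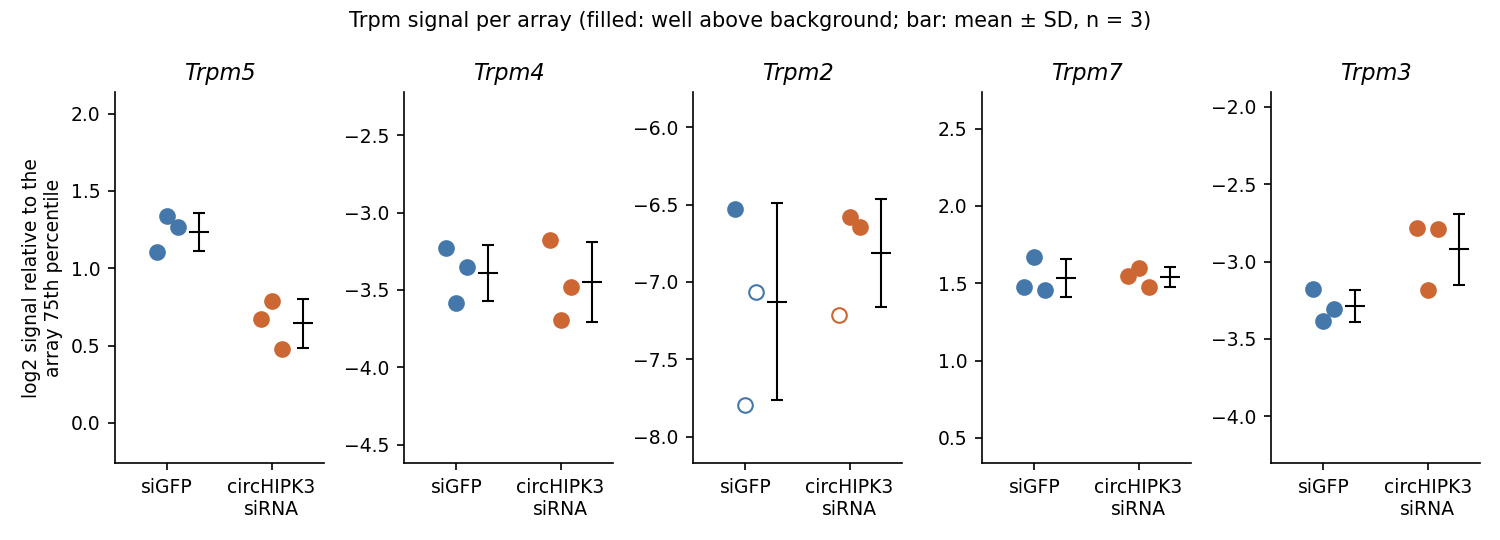
Log2 signal relative to the 75th percentile of the array (vertical axis) for the brightest probe of each Trpm gene in 3 siGFP and 3 circHIPK3 siRNA arrays; filled points were well above background, open points were not, and bars show the mean ± SD (n = 3). Every panel spans the same range of log2 units, and Trpm5 is the panel in which the groups do not overlap, with values of 1.10 to 1.34 for siGFP and 0.47 to 0.79 for circHIPK3 siRNA.

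The sequences just upstream of Trpm5 and Trpm7 are shown because both genes were well above background on all arrays and they had the largest and the smallest change of the 4 in the fit. RefSeq promoter windows of build GRCm38.p6 were matched for 4 of the 5 genes, namely Trpm2, Trpm3, Trpm5 and Trpm7. The 250 bases before the start site are printed 5′ to 3′ on the strand of the gene, with CpG dinucleotides in capitals. The Trpm5 window is chr7:143094643-143094892 on the minus strand and the Trpm7 window is chr2:126876262-126876511 on the minus strand.
Trpm5: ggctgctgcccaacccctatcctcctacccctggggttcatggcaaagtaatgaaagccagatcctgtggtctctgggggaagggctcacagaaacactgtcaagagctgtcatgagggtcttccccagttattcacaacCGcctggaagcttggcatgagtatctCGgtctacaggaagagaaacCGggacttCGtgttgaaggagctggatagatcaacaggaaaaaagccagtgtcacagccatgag
Trpm7: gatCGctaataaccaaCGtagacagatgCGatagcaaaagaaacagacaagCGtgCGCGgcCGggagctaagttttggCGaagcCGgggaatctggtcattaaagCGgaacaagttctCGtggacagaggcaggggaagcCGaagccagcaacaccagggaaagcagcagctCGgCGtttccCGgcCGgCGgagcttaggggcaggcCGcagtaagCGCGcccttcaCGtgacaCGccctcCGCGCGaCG
The Trpm5 window held 4 CpG dinucleotides, against a median of 6 over 32851 RefSeq windows of the same length. The Trpm7 window held 26, and 8.56% of all windows held more. Trpm2 had 10, and the 2 windows of Trpm3 had 17 and 9. The letters CACGTG occurred once in the Trpm7 window and in 6.02% of all windows. TATAAA, on either strand, occurred once in the Trpm2 window and in 12.4% of all windows, and CCAAT occurred once in the first Trpm3 window and in 33.8% of all. None of these 3 strings was present in the Trpm5 window.

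Trpm3 encodes a calcium- and zinc-permeable channel that pregnenolone sulfate activates in beta cells. Its gene also carries the microRNA gene Mir204 within its RefSeq limits, as Trpm1 carries Mir211. The mature 5p sequences are shown because the pair shares its seed, bases 2 to 8, here in capitals. In RefSeq on GRCm38.p6 they lie on the plus strand at chr19:22750610-22750631 and chr7:64205831-64205852.
mmu-miR-204-5p: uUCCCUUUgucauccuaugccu
mmu-miR-211-5p: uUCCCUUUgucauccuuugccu
No probe on the array was assigned to either microRNA gene, so the Trpm3 values concern the host transcript.

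The 3 Trpm3 probes are assigned to 3 different RefSeq transcript variants, and they gave different readings. The brightest was well above background on all 6 arrays, at 325, 352 and 343 units for siGFP and 521, 404 and 496 units for circHIPK3 siRNA. Its log2 values were -3.18, -3.38 and -3.31 for siGFP, and -2.79, -3.18 and -2.79 for circHIPK3 siRNA. Replicates 1 and 3 of circHIPK3 siRNA lay above every siGFP array, and replicate 2 lay just inside the upper end of the siGFP range. The change was 0.37 ± 0.14 (SE), 1.29-fold, with a 95% interval of 0.05 to 0.69.

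The genes of its signal class, the second dimmest of the 4, had a median change of 0.15. The change of Trpm3 was 0.21 above that, and 15.2% of the class lay higher still. Within the first scan the change of Trpm3 was 0.50 ± 0.15 (SE). The second probe was well above background on circHIPK3 siRNA replicate 2 only, at 28.7 units, and read 11.6 to 21.7 on the other 5 arrays. The third probe read 4.40 to 5.46 units and was not well above background on any array. Neither can show whether other variants differed as the first did.

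Trpm1 and Trpm8 were measured as well, whereas Trpm6 was not well above background on any array. The brightest Trpm1 probe differed by 0.22 ± 0.11 (SE, limma adjusted p = 0.30) and that of Trpm8, which encodes the cold and menthol receptor, by 0.36 ± 0.25 (SE, limma adjusted p = 0.43).

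By the limma fit with Benjamini-Hochberg adjustment over all genes, 0 of the 4 Trpm genes in the fit passed the threshold of 0.05, in either direction. Of all genes, 1.18% passed, 0.64% with circHIPK3 siRNA lower and 0.535% with it higher. At an unadjusted p under 0.05 the count was 2 of 4, against 21.1% of all genes (6.51% lower and 14.6% higher). The groups did not overlap for 1 of the 4, Trpm5, which was lower, against 25.9% of all genes in either direction and 9.38% with circHIPK3 siRNA lower. With the members chosen on this contrast, nothing is read from these counts. Under 19 alternative settings the change of Trpm5 ranged from -0.69 to -0.51 and that of Trpm3 from 0.24 to 0.50. Trpm4 ranged from -0.20 to 0.21 and Trpm7 from -0.10 to 0.08, and each had the opposite sign under 4 of the 19.

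**Figure D2:**
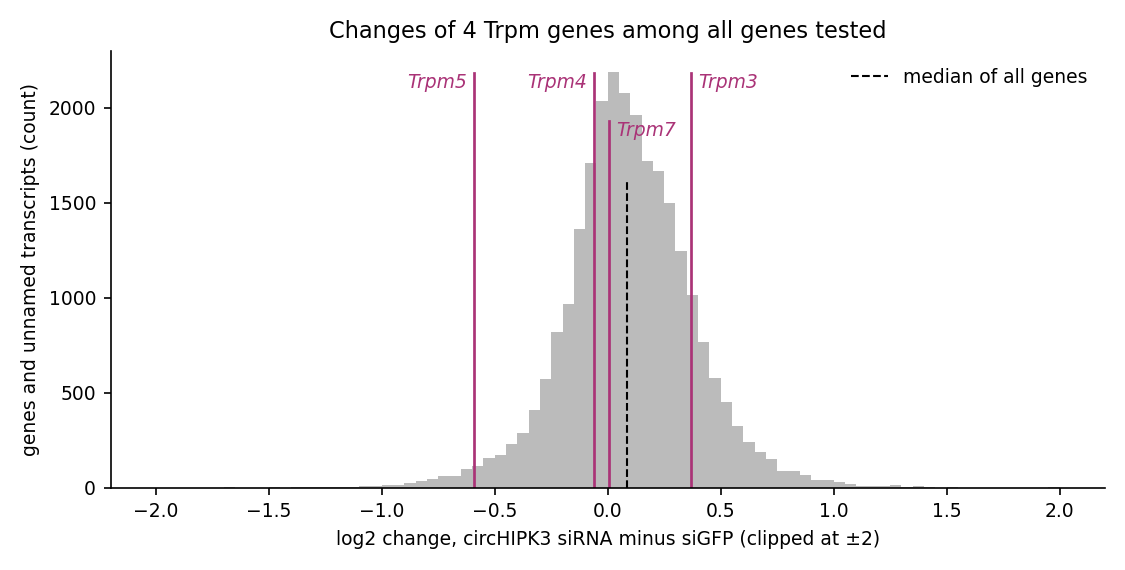
Histogram of the log2 change, circHIPK3 siRNA minus siGFP (horizontal axis), over 25776 genes and unnamed transcripts (count on the vertical axis), with lines at the 4 Trpm genes and a dashed line at the median of all genes. Trpm5 at -0.59 sits in the lower tail, Trpm4 at -0.06 and Trpm7 at 0.0063 near the centre, and Trpm3 at 0.37 in the upper flank.

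**Figure D3:**
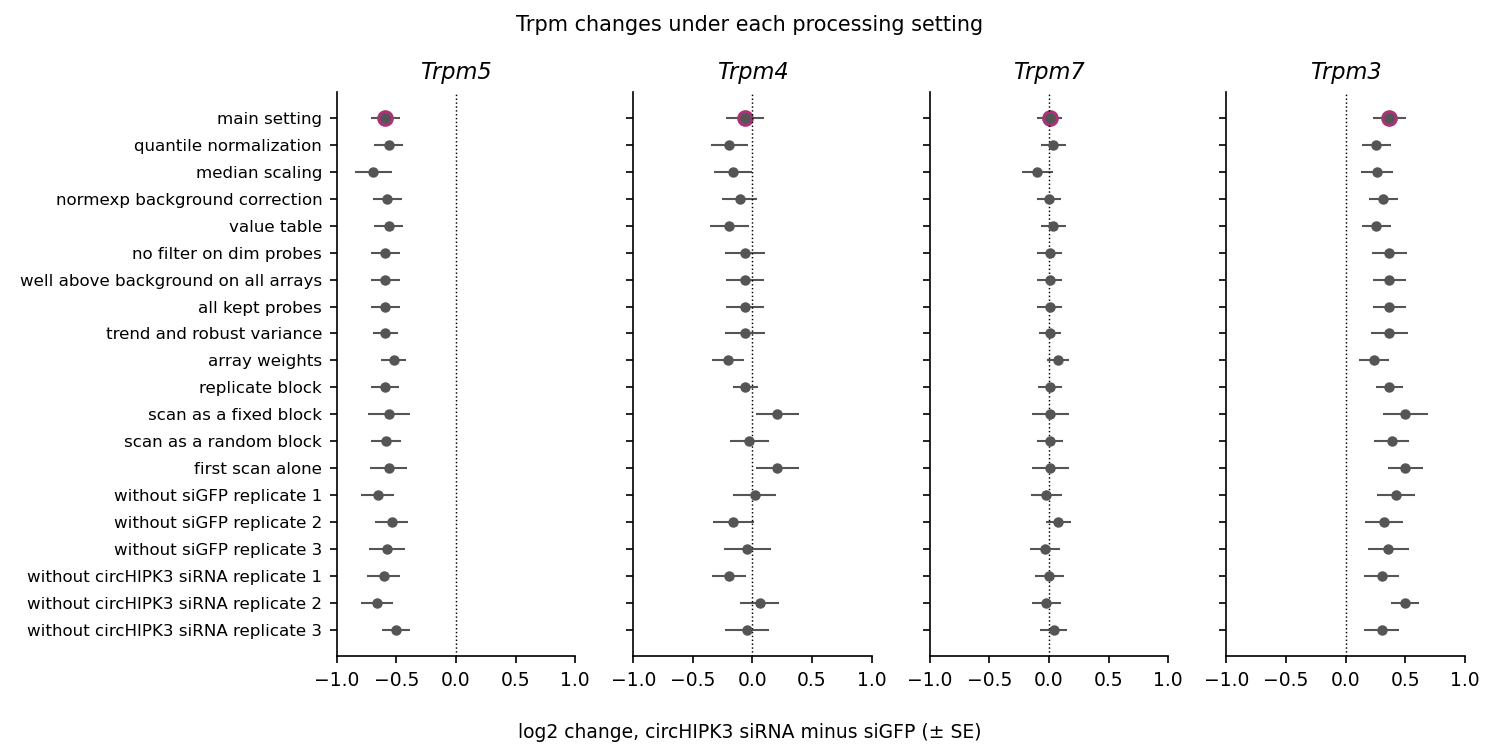
Log2 change ± SE (horizontal axis) of 4 Trpm genes under the main setting, drawn larger at the top, and 19 alternatives (vertical axis). The points of Trpm5 lie between -0.69 and -0.51 and those of Trpm3 between 0.24 and 0.50, whereas Trpm4 and Trpm7 have points on both sides of 0.

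Genes whose products act with these channels were then examined, in 7 lists holding 161 symbols, of which 147 were measured. Over all lists, each gene counted once, 3 fell and 0 rose at the limma threshold. These calls are 2.04% of the measured genes, against 1.18% of all genes tested. The 3 were Nadk, Mmgt1 and Cacnb3. The median change over the 147 genes was 0.05, against 0.08 for all genes. The groups did not overlap for 24 genes with circHIPK3 siRNA lower (16.3%, against 9.38% of all genes) and for 21 with it higher (14.3%, against 16.6%).

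In the list of ADP-ribose and NAD metabolism, which supplies the TRPM2 ligand, 1 of 20 measured genes fell and 19 did not pass. At an unadjusted p under 0.05, 3 of the 20 were lower and 3 higher, against 6.51% and 14.6% of all genes. Nadk encodes the cytosolic NAD kinase. Its mean fell from 1.36 ± 0.06 to 0.63 ± 0.17 (SD, n = 3 each), and the change was -0.73 ± 0.12 (SE), 1.66-fold (limma adjusted p = 0.0447). Its second probe gave -0.36 ± 0.09 (SE). NAD kinase makes NADP and does not itself form ADP-ribose. The list median was -0.06. Among 21 measured genes of cAMP signalling, which sensitises TRPM2 in beta cells, none passed the limma test and 3 were lower and 0 higher at an unadjusted p under 0.05, where 6.51% of all genes were lower and 14.6% higher. The 2 with the smallest p were Pde1c, a calmodulin-dependent phosphodiesterase gene (-0.43 ± 0.13, SE, limma adjusted p = 0.136), and Gipr, the receptor gene of the incretin GIP (-0.27 ± 0.09, SE, limma adjusted p = 0.166). The other 2 Pde1c probes gave 0.10 ± 0.15 and 0.04 ± 0.10 (SE).

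Of 28 measured genes of magnesium and zinc handling, 1 fell and 27 did not pass. At an unadjusted p under 0.05, 6 of the 28 were lower and 3 higher, against 6.51% and 14.6% of all genes. Mmgt1, which encodes a membrane magnesium transporter that is also a subunit of the ER membrane protein complex, fell from 0.93 ± 0.09 to 0.35 ± 0.07 (SD, n = 3 each). The change was -0.58 ± 0.10 (SE), 1.49-fold (limma adjusted p = 0.0494). Among 25 measured genes of membrane excitability, 1 fell and 24 did not pass. By unadjusted p under 0.05, 3 of the 25 were lower and 3 higher (6.51% and 14.6% of all genes). Cacnb3, which encodes the β3 subunit of voltage-gated calcium channels, fell from -1.44 ± 0.09 to -2.07 ± 0.08 (SD, n = 3 each), a change of -0.64 ± 0.10 (SE) and 1.55-fold (limma adjusted p = 0.0437). The medians of these lists were -0.06 and 0.02.

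The calls of Nadk, Mmgt1 and Cacnb3 were all lost on leaving out a single array, except circHIPK3 siRNA replicate 1, with scan as a block, fixed or random, within the first scan alone, and without a filter on dim probes. With the deposited value table, that of Cacnb3 held and the others did not, and quantile normalization ended that of Mmgt1. Within the first scan the changes were -0.79 ± 0.14, -0.66 ± 0.15 and -0.56 ± 0.14 (SE), and over 19 alternatives the limma adjusted p ranged from 0.00697 to 0.187, from 0.0127 to 0.229 and from 0.0172 to 0.275.

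In the taste cascade that opens TRPM5, none of 14 measured genes passed the limma test. At an unadjusted p under 0.05, 1 was lower and 3 were higher, against 6.51% and 14.6% of all genes. Tas1r1, an umami receptor subunit gene, gave 0.77 ± 0.18 (SE, limma adjusted p = 0.0830), and Gnb3, a G protein β subunit gene, gave 0.72 ± 0.19 (SE, limma adjusted p = 0.105). Both lay in the dim range of the array, with siGFP means of -5.04 and -5.09. Over 19 alternatives their changes ran from 0.45 to 0.92 and from 0.38 to 0.89. Among 22 measured genes of calcium release and store refilling none passed the limma test, and 1 was lower and 1 higher at an unadjusted p under 0.05 (6.51% and 14.6% of all genes). These were the phospholipase C genes Plcb3 (-0.46 ± 0.14, SE, limma adjusted p = 0.147) and Plcb4 (0.35 ± 0.15, SE, limma adjusted p = 0.231). The second Plcb4 probe gave 0.22 ± 0.15 (SE). Without circHIPK3 siRNA replicate 1 the Plcb4 value was 0.20, and in the first scan alone it was 0.64.

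Of 18 measured TRP channel genes outside the 5, none passed the limma test, and 1 was lower and 4 higher at an unadjusted p under 0.05 (6.51% and 14.6% of all genes). Their median change was 0.26, and 16 of 18 were above 0. Over all genes, the 4 signal classes had medians of 0.28, 0.15, 0.02 and -0.0097, from the dimmest to the brightest. The list holds bright genes, such as Mcoln1 with a siGFP mean of 1.71, as well as dim ones, and the part of brightness was not tested. The 2 with the smallest p were Trpc5 and Trpv2. No siGFP array had Trpc5 well above background, so no change is given for it, although the counts and the median above include it. Trpv2, which encodes a channel that growth factors bring to the membrane of beta cells, gave -0.39 ± 0.11 (SE, limma adjusted p = 0.12).

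**Figure D4:**
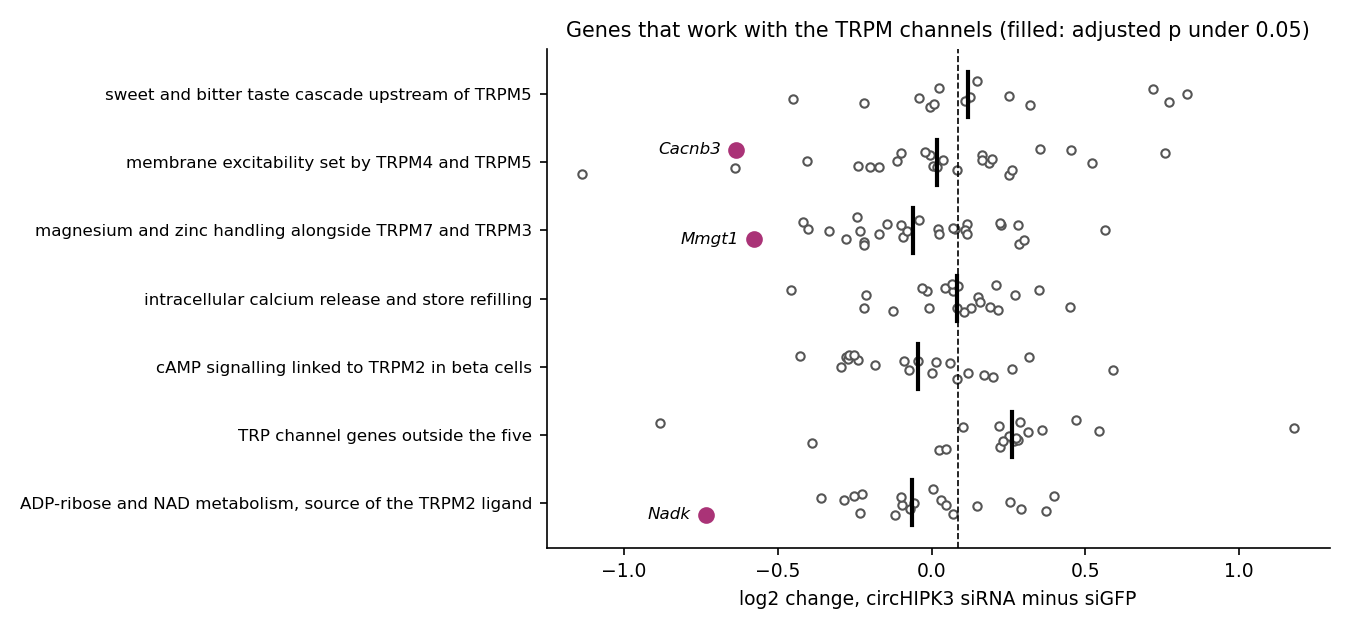
Log2 change, circHIPK3 siRNA minus siGFP (horizontal axis), of each measured gene in 7 lists (vertical axis); open points did not pass the limma test, filled points did, black bars are list medians and the dashed line is the median of all genes. The 3 filled points, Nadk at -0.73, Cacnb3 at -0.64 and Mmgt1 at -0.58, are all below 0. Trpc5, at the far right, is drawn at its fitted value although no siGFP array had it well above background.

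For each channel gene in the fit, the genes with the most similar values were found by Pearson's r over the 6 arrays among 17159 other genes with a symbol. These r values describe 6 arrays that share the group difference and the scans, and high values are common: 278 genes had an r above 0.95 with Trpm5. Closest to Trpm5 were Hprt, a purine salvage gene (r = 0.9987, change -0.38 ± 0.10, SE), Traf5, a TNF receptor adaptor gene (r = 0.9945, -0.33 ± 0.10, SE), and Mff, a mitochondrial fission factor gene (r = 0.9941, -0.64 ± 0.11, SE). Closest to Trpm3 were Xpnpep3, Ints2 and Emp2 (r = 0.9918 to 0.9968), although the second Emp2 probe gave 0.47 ± 0.15 (SE) where the first gave 0.10 ± 0.09. Closest to Trpm4 were Tnfrsf12a, F10 and Agt (r = 0.9887 to 0.9923), and closest to Trpm7 were Ahr, Pole4 and Rhoq (r = 0.9912 to 0.9945).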

How the data were processed

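RNA of 6 MIN6B1 samples was labelled with Cy3 and hybridised to single-colour Agilent arrays, per the labels' protocols. The deposited files hold a linear, background-subtracted intensity for every spot. Per the file headers, the scans were read by Agilent Feature Extraction 11.0.1.1. The deposited value table holds log2 values of 31868 probes, and how they were normalized is not given in the sources used here. Each column followed the log2 scanner values (r from 0.9999) and had a median of 9.80.

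Processed intensities were divided by each array's 75th percentile over 43020 non-control spots and log2-transformed, and each probe took the mean of its spots, without those marked as outliers. No spot was saturated. Probes were named through RefSeq accessions (GRCm38.p6), which named 27234 probes and left 12195 without a symbol, and the brightest kept probe stood for a gene. The array design names another genome build, so no probe coordinates are given.

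Groups were compared with limma 3.58.1 (R 4.3.3), fitting group alone with lmFit, moderating with eBayes and adjusting by Benjamini-Hochberg. The script was tested on simulated data. The alternatives changed scaling, background correction, filter, probe choice, variance model, block or arrays. Figures were drawn with matplotlib 3.10.9. The members and lists were chosen with earlier results of these data known. Per list, up to 4 called genes, or else the 2 with the smallest p, are named, and per channel gene the 3 with the highest r. With 6 arrays, their number limits the precision.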

Additional observations from a re-analysis of the deposited data

How the results depend on the processing

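Over 19 alternatives per gene, Trpm5 stayed below 0 and Trpm3 above 0. The settings of filter, probe choice, variance model and replicate block left these estimates as they were and could not change a sign. Since the Trpm5 groups did not overlap, leaving out an array or using the first scan alone could not change its sign either. Nothing is read from the constant signs. Leaving out each array gave -0.66 to -0.51 for Trpm5, 0.30 to 0.50 for Trpm3, -0.20 to 0.06 for Trpm4 and -0.03 to 0.08 for Trpm7. Scan as a fixed block and the first scan alone both gave 0.21 for Trpm4, and median scaling gave -0.10 for Trpm7. The count of Trpm genes passing the limma test was 1 with trend and robust variance and 1 with array weights, and 0 under the others. As above, nothing is read from these counts.

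The count of all genes passing was 303, of which 165 were lower and 138 higher. It was 602 with median scaling (399 lower, 203 higher), 185 with the value table (151 and 34), 622 with trend and robust variance (427 and 195), 1804 with array weights (690 and 1114) and 124 with scan as a random block (79 and 45). Quantile normalization gave 202 lower and 42 higher, normexp 241 and 38, and the stricter filter 161 and 78. The limma count was 0 without a filter on dim probes (5631 at an unadjusted p under 0.05), with scan as a fixed block (2676) and with the first scan alone (2871). Leaving out each array gave 0 to 1736, where 1736 came without circHIPK3 siRNA replicate 1, a setting in which the groups lie in separate scans. The count of pathway genes was 3. It was 6 with median scaling, 1 with the value table, 13 with array weights, 0 without a filter, with either scan block and in the first scan alone, and 0 to 12 on leaving out an array, with 12 again without circHIPK3 siRNA replicate 1. The causes were not tested.

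With the replicate number as a block, 0 genes passed by limma (5133 at an unadjusted p under 0.05), 0 of them pathway genes (adjusted p = 0.0933 for Nadk, 0.0949 for Mmgt1 and 0.0921 for Cacnb3), and Trpm5 was at -0.59 ± 0.12 (SE). Same-numbered arrays deviated with correlations of -0.02, 0.27 and -0.13, and arrays of different numbers with -0.35 to 0.29. With 3 arrays per group, all of siGFP in the first scan and replicates 2 and 3 of circHIPK3 siRNA in the second, these values cannot settle whether the samples were paired. Probes near background, such as that of Trpm2, carry no measurable change.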

Other observations

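The genes next to the Trpm genes on the chromosome were examined after the other values had been seen. In RefSeq order, the 3 nearest measured protein-coding genes on each side of Trpm3, Trpm4, Trpm5 and Trpm7 made 24 neighbours. By limma, 0 of the 24 passed over all genes, against 1.18% of all genes, and 4 had an unadjusted p under 0.05, against 21.1%. The groups did not overlap for 7 of the 24, against 25.9% of all genes. The changes of the 24 ran from -0.70 to 0.61. Around Trpm5, which lies on distal chromosome 7 in a region with imprinted genes, the 6 neighbours differed in direction. The tetraspanin genes Tspan32 and Cd81 gave 0.25 ± 0.17 and 0.06 ± 0.12 (SE), and Tssc4 gave -0.28 ± 0.12 (SE). On the other side, the cyclin-dependent kinase inhibitor gene Cdkn1c gave -0.34 ± 0.15 (SE), Slc22a18 gave 0.35 ± 0.21 (SE) and the nucleosome assembly gene Nap1l4 gave 0.03 ± 0.16 (SE).

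The neighbour with the lowest change was Lin7b, a scaffold protein gene beside Trpm4, at -0.70 ± 0.13 (SE, limma adjusted p = 0.0529). It lay below the siGFP range on all 3 circHIPK3 siRNA arrays, as did 9.38% of all genes. Trpm4 itself was at -0.06 ± 0.16 (SE). As Lin7b was picked as the lowest of the 24, nothing is read from its value.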
